A study of Mus musculus with 6 samples.

Results

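Glutamate receptors, their auxiliary subunits and the transporters that load or clear glutamate were compared between medial and lateral motor neurons, which were sorted from the lumbar cord of mouse embryos at embryonic day 12. The set was defined by name as 40 genes, and a gene was used where an array row carried its symbol alone. This held for 31 of the 40 genes, out of 14860 genes with such a row in all. Grin3a and Slc1a2 shared their rows with other symbols and were not used, and Grik3, Grin1, Grm2, Grm5, Cacng3, Cacng7 and Cacng8 had no row of their own and were not analysed here. No gene of the set had more than 1 row. The 6 arrays comprised 3 samples of medial motor neurons and 3 samples of lateral motor neurons, 1 array each. All embryos of both groups carried the transgene HB9::GFP of the line mHB9-Gfp1b, in which promoter sequence of the motor neuron gene Mnx1 drives green fluorescent protein. The columns of the lumbar cord were separated by dissection and the neurons were then isolated by fluorescence sorting, so the division into groups rests on dissection. Medial column neurons serve the muscles along the spine and lateral column neurons those of the limb.

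Glutamate is the main excitatory transmitter onto motor neurons. AMPA receptors carry most of the fast current, kainate receptors modulate it, and NMDA receptors add a slower current that admits calcium and is blocked by magnesium at rest. Metabotropic receptors signal through G proteins, many of them from axon terminals. Auxiliary subunits control how receptors reach the surface and how fast they close. Motor neurons are cholinergic, and the vesicular transporters encoded by Slc17a6, Slc17a7 and Slc17a8 are the usual marks of neurons that release glutamate.

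Medians of the deposited log2 values lay between 6.73 and 6.84 on the 6 arrays, and arrays of a group correlated with r from 0.987 to 0.993, against 0.980 to 0.988 between groups. The labels held for the column markers, since Lhx3, Lhx4 and Mecom were higher and Foxp1, Aldh1a2 and Lhx1 lower in the medial samples, 6 of 6 past an adjusted p of 0.05 in limma. All 10 measured motor neuron markers had means above 7.47 in both groups. Mnx1 and Isl2 passed as higher and Isl1, Prph and Ret as lower in medial neurons, and Mnx1, the gene behind the sorted transgene, differed 2.67-fold. The value of 7.47 is the highest group mean among 12 skeletal muscle genes, where the lowest was 3.66 and the median level over all arrays was 6.05. A level at or below 7.47 cannot be told from background here, although it need not be background. The mean of the muscle genes ran from 5.77 to 5.81 in medial and from 5.74 to 5.84 in lateral samples. The mean of the excitatory interneuron markers ran from 6.37 to 6.50 in medial and from 6.28 to 6.75 in lateral samples, with 9 of the 11 genes at or below the bound. For inhibitory interneuron markers it ran from 5.89 to 5.99 in medial and from 5.94 to 6.16 in lateral samples, with 10 of 10 at or below it. Progenitor and radial glia markers averaged 6.88 to 6.96 in medial and 6.76 to 6.92 in lateral samples, with 11 of the 14 genes at or below the bound. Vim, Fabp7 and Sox9 stood above it in both groups. Of these 14 genes only Sox2 passed, at 6.31 in medial against 5.68 in lateral samples (limma adjusted p = 0.0376), with levels below the bound in both groups. Sox9 was higher in each medial sample than in any lateral one, by 0.23, and did not pass (limma adjusted p = 0.329). By sign, 7 of the 14 were higher and 7 lower in medial samples. None of the sensory and neural crest, vascular, blood and myeloid, or skeletal muscle genes passed in limma, where 1, 0 and 0 of them had an unadjusted p under 0.05. These lists held 7, 9 and 12 measured genes, and of all named genes only 3.8% passed. Of the sensory and neural crest genes, 5 of 7 were at or below the bound. Ngfr and Pou4f1 stood above it, at 12.06 and 7.55 in medial and 12.07 and 7.60 in lateral samples. Of the vascular, blood and myeloid genes, 9 of 9 were at or below it.

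**Figure D1:**
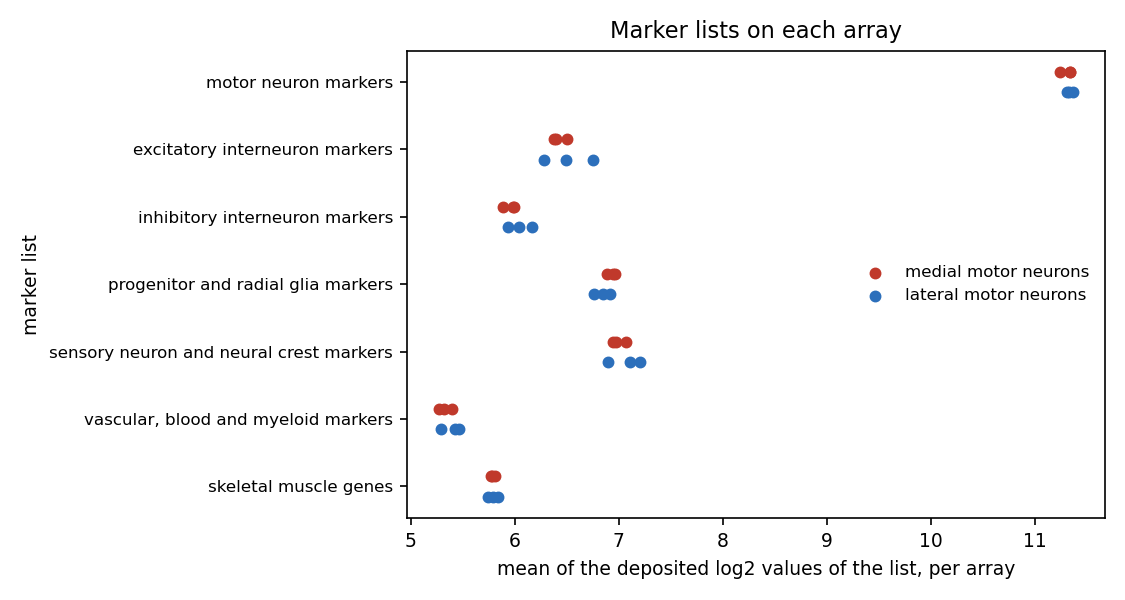
Mean deposited log2 value of each marker list on every array, with the 3 medial samples above the 3 lateral samples in each row. Motor neuron markers sat between 11.24 and 11.37 on all arrays, and the lists of other cell types between 5.27 and 7.21.

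Medial neurons had higher values for 4 and lower values for 6 of the 31 measured glutamate genes (limma, adjusted over all 23332 rows). Cnih3 and Grik1 showed the largest differences, 4.67-fold and 3.62-fold lower in medial neurons, and Slc17a6 and Gria3 were the largest in the other direction, 2.03-fold and 1.84-fold higher. The 10 genes make up 32.3% of the 31. Of all rows, 3.07% passed, 1.13% as higher and 1.94% as lower in the medial samples, and of all genes with a row of their own 3.8% passed, 1.53% as higher and 2.26% as lower. Among genes with a group mean above the bound of 7.47, 5.94% passed, and 7 of the 23 glutamate genes that meet that condition did. The calls ran both ways, so the median log2 difference of the 31 was −0.02, beside 0.01 over all named genes. The median absolute difference was 0.33, beside 0.09. In 18 of the 31 the 2 groups were free of overlap, which was so for 22.2% of all named genes. The 10 called genes are among the 18, and a call selects for such separation, so it adds no support to a call. The set was put together with results of these data known, so these shares describe it and do not test it. In whole sorted samples, fewer cells that use a gene and less RNA per cell cannot be told apart.

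**Figure D2:**
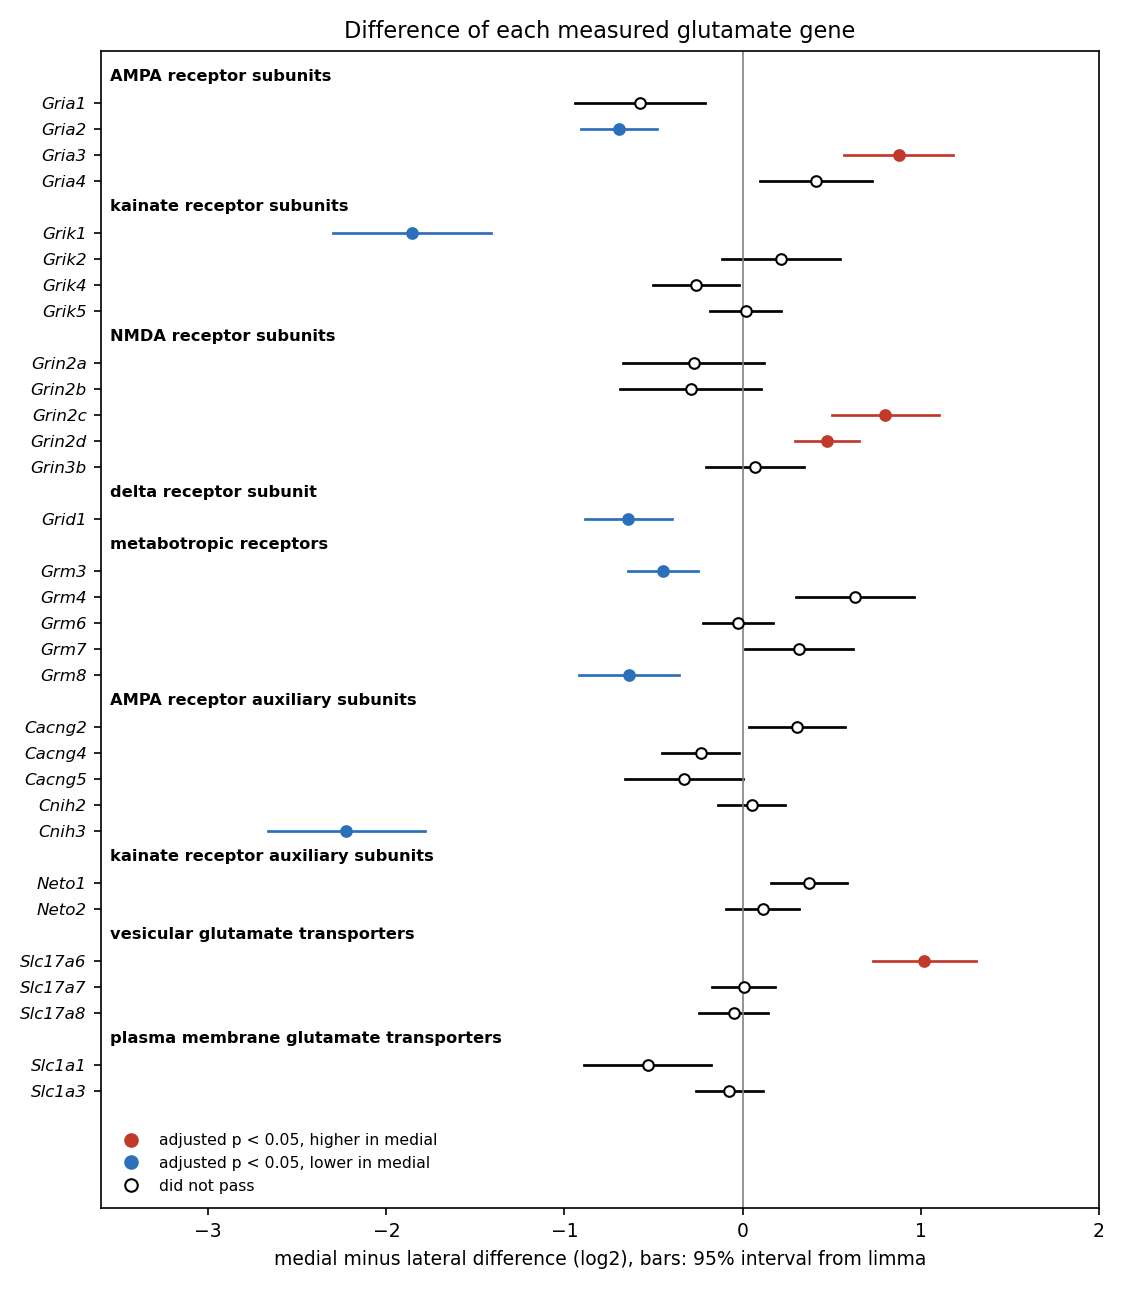
Medial minus lateral difference on the log2 scale for the 31 measured genes, grouped by role, with 95% intervals from limma. Filled points passed an adjusted p of 0.05, and they run from −2.22 for Cnih3 to 1.02 for Slc17a6.

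Of the 4 AMPA receptor subunit genes, 1 passed as lower, 1 as higher and 2 did not pass, where 3.8% of all named genes passed. Gria2, whose product makes the receptor nearly impermeable to calcium once its transcript is edited, was lower in the medial samples. Gria3 was higher. Gria2 read 10.34, 10.14 and 10.27 in the medial samples, against 11.00, 10.97 and 10.85 in the lateral samples. All 3 medial samples were therefore below all 3 lateral samples, by 1.62-fold on average (log2 difference −0.69 ± 0.09, SE, limma adjusted p = 0.0118). Gria3 read 10.11, 9.79 and 9.84 in the medial samples, against 9.14, 9.11 and 8.85 in the lateral samples. Here each medial sample was above each lateral sample, by 1.84-fold on average (log2 difference 0.88 ± 0.13, SE, limma adjusted p = 0.0184).

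The other AMPA subunit genes missed the threshold. Gria1 averaged 8.66 ± 0.12 in medial and 9.24 ± 0.28 in lateral samples (log2, SD, n = 3 each), a difference of −0.58 with a 95% interval from −0.94 to −0.21 and a limma adjusted p of 0.147. It passed after quantile normalization (adjusted p = 0.0357). Gria4 averaged 10.47 ± 0.11 in medial and 10.06 ± 0.22 in lateral samples, a difference of 0.41 with an interval from 0.10 to 0.72 and a limma adjusted p of 0.227. The arrays measure the amount of each transcript and read neither its editing nor its alternative exons. With 5 arrays, the call of Gria2 was lost when medial replicate 2, lateral replicate 2 or medial replicate 3 was missing (limma adjusted p up to 0.061). That of Gria3 ended without any single medial replicate or without lateral replicate 2 (up to 0.0715).

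AMPA receptors travel and gate with cornichons and with TARPs, the transmembrane regulatory proteins of the Cacng genes. Cnih3, a cornichon that slows the closing of AMPA receptors, had the largest difference of the whole set. It read 7.86, 7.71 and 7.71 in the medial samples, against 10.34, 9.61 and 10.00 in the lateral samples. No medial sample came near a lateral one, and the medial mean was 4.67-fold lower (log2 difference −2.22 ± 0.18, SE, limma adjusted p = 0.00223). This call survived the loss of any sample (limma adjusted p at most 0.0187). Its paralog Cnih2 averaged 11.80 ± 0.09 in medial and 11.75 ± 0.03 in lateral samples, and the 95% interval of its difference, from −0.14 to 0.24, left out a change of the size seen for Cnih3.

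No measured TARP gene passed, where 3.8% of all named genes did and 5.94% of those with a group mean above the bound. So few genes cannot be told from that share. Cacng2, which encodes stargazin, averaged 10.70 ± 0.12 in medial and 10.39 ± 0.16 in lateral samples (log2 difference 0.31, limma adjusted p = 0.301). Cacng4 differed by −0.23 (adjusted p = 0.324). Neither Cacng2 nor Cacng4 had overlapping groups, and 22.2% of all named genes had no overlap. Cacng5 differed by −0.33 (adjusted p = 0.376), and its medial and lateral values overlapped.

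**Figure D3:**
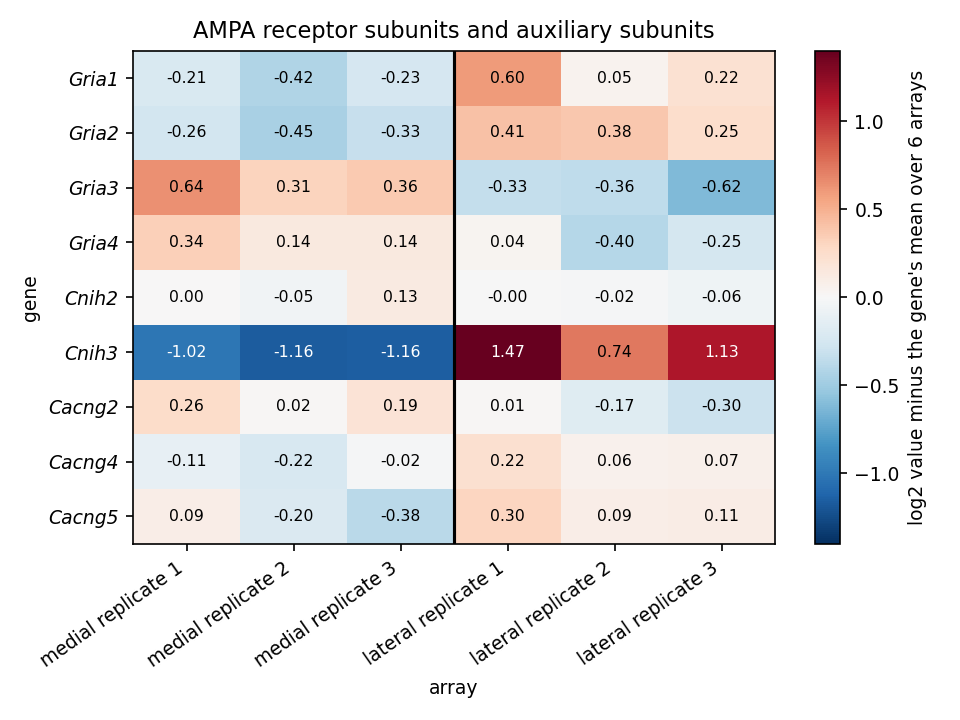
Deposited log2 value of each AMPA receptor gene and auxiliary gene on each array minus its mean over the 6 arrays, with the medial samples left of the line. Cnih3 lay between −1.16 and −1.02 in the medial and between 0.74 and 1.47 in the lateral samples, Gria1 and Gria2 were below 0 and Gria3 and Gria4 above 0 in all medial samples, and Cnih2 stayed between −0.06 and 0.13.

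For the genes called in each direction with the largest differences and an entry in the RefSeq promoter table (Slc17a6 and Grin2c as higher, Cnih3 and Gria2 as lower), the 250 bases before the annotated start are shown, since they are the sequence nearest to the starts of genes that differed in opposite directions. The table held 7 of the 10 called genes and 22 of the 31 measured. Coordinates are those of assembly GRCm38.p6, given with the strand of the gene. The window of Gria2 is chr3:80802836-80803085 on the minus strand and that of Cnih3 is chr1:181352378-181352627 on the plus strand. Capitals mark matches on either strand to 8 short motifs. They are the homeodomain core TAATTA, the forkhead core TGTTTAC, the nuclear receptor half-site AGGTCA, the GC box GGGCGG, the NRF1 core TGCGCA, the cyclic AMP response half-site TGACGT, the TATA box TATAAA and the E-box CAGCTG.
Gria2: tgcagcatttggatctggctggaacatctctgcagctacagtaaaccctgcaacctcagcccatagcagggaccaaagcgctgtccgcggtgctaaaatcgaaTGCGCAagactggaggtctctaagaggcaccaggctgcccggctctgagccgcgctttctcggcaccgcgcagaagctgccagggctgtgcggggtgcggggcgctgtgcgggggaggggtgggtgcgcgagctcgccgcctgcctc
Cnih3: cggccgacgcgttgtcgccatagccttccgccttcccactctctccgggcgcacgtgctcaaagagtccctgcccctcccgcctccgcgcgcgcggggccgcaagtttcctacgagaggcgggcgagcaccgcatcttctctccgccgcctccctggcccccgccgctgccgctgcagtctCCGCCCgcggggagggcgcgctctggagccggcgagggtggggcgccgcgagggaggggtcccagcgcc
The Gria2 window held 1 NRF1 core, which begins 147 bases before the start, and the Cnih3 window 1 GC box, 69 bases before it. Of all 32851 windows of this length in the table, 6.43% held an NRF1 core and 32.7% a GC box. Both windows were rich in G and C, at 64.8% for Gria2 and 76.0% for Cnih3, where the median window had 52.4%. Neither held a homeodomain or forkhead core, which 4.84% and 3.17% of all windows did.

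Kainate receptors are built from the subunits of Grik1 to Grik3 with the high-affinity subunits of Grik4 and Grik5. Grik1 was the only one of the 4 measured subunit genes to pass, where 3.8% of all named genes passed. It read 5.74, 5.60 and 5.97 in the medial samples, against 7.87, 7.75 and 7.25 in the lateral samples. The medial samples were all lower, by 3.62-fold on average (log2 difference −1.86 ± 0.18, SE, limma adjusted p = 0.00467). The medial mean of 5.77 is below the bound, so the fold can understate the difference. The lateral mean of 7.62 is only just above the bound, and lateral replicate 3, at 7.25, is below it. The call held in each fit with 1 sample left out (adjusted p at most 0.0268).

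Grik2 and Grik5 had overlapping values, with log2 differences of 0.22 (95% interval from −0.12 to 0.55) and 0.02 (from −0.18 to 0.22). Grik4 was lower in each medial sample than in any lateral one, by 0.26, and did not pass (limma adjusted p = 0.328). The auxiliary subunits Neto1 and Neto2, which set the speed and the surface level of kainate receptors, differed by 0.37 and 0.11 and did not pass either (limma adjusted p = 0.107 and 0.674). Neto1 had no overlap, with means of 8.43 ± 0.08 in medial and 8.06 ± 0.10 in lateral samples. It passed when rows below the median level were left out and with 1 row per gene (adjusted p from 0.0397 to 0.2 over the 6 alternative fits to all samples).

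Among NMDA receptor genes, the subunits GluN2C and GluN2D, known for a weak magnesium block, were encoded by the 2 genes that rose in medial neurons. They were the only ones of the 5 measured genes to pass, where 3.8% of all named genes passed. Grin2c read 7.96, 7.62 and 7.86 in the medial samples, against 6.92, 6.93 and 7.19 in the lateral samples. Each medial sample exceeded each lateral sample, by 1.74-fold on average (log2 difference 0.80 ± 0.13, SE, limma adjusted p = 0.0242). The lateral mean of 7.01 was below the bound. Grin2d read 8.82, 8.81 and 8.89 in the medial samples, against 8.43, 8.33 and 8.33 in the lateral samples. The groups did not overlap, and the difference was small and tight at 1.39-fold (log2 difference 0.48 ± 0.07, SE, limma adjusted p = 0.0242).

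Grin2a and Grin2b, the subunits that dominate in the forebrain, pointed the other way without passing, at −0.27 (95% interval from −0.67 to 0.12) and −0.29 (from −0.69 to 0.10). Grin3b, a subunit known from motor neurons, differed by 0.07 at a level below the bound. The call of Grin2c was lost when lateral replicate 1, lateral replicate 2, medial replicate 1 or medial replicate 3 was missing (limma adjusted p up to 0.11). That of Grin2d ended without any single sample other than lateral replicate 1 (up to 0.116).

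The promoter window of Grin2c, chr11:115267244-115267493 on the minus strand of GRCm38.p6, is shown with the same marks.
Grin2c: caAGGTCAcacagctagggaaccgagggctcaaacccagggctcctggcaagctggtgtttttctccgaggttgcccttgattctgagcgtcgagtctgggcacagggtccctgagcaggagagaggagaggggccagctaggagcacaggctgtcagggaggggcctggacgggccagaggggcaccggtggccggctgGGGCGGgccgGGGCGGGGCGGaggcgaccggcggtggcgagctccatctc
It held GC boxes that begin 50, 40 and 35 bases before the start, the last pair sharing a base, and a nuclear receptor half-site at 248 bases, a motif in 14.0% of all windows.

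Grid1 encodes GluD1, a delta receptor that binds cerebellins at synapses and passes little or no current in response to glutamate. It read 9.38, 9.25 and 9.48 in the medial samples, against 10.04, 10.12 and 9.88 in the lateral samples. All medial samples were lower, by 1.56-fold on average (log2 difference −0.64 ± 0.10, SE, limma adjusted p = 0.0257). Cbln1, whose product is a cerebellin that binds delta receptors and neurexins, went the other way. It read 10.95, 10.91 and 10.89 in the medial samples, against 8.95, 8.78 and 8.79 in the lateral samples. That 4.21-fold rise (log2 difference 2.07 ± 0.08, SE, limma adjusted p = 1.65e-04) was the largest among the partner genes examined. The call of Cbln1 held in every fit with 1 sample left out, and that of Grid1 ended without any single sample other than lateral replicate 3 (limma adjusted p up to 0.0987).

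The 5 measured metabotropic receptors all couple to inhibitory G proteins. Grm3 and Grm8 were lower in the medial samples, and both stood below the bound in both groups. Grm8 read 5.38, 5.21 and 5.31 in the medial samples, against 6.15, 5.76 and 5.91 in the lateral samples. Its medial mean was 1.56-fold lower, without overlap (log2 difference −0.64 ± 0.12, SE, limma adjusted p = 0.0416). Grm3 read 6.29, 6.13 and 6.28 in the medial samples, against 6.75, 6.64 and 6.64 in the lateral samples. It was 1.36-fold lower, again without overlap (log2 difference −0.45 ± 0.08, SE, limma adjusted p = 0.0444). Both calls ended with any single sample left out (limma adjusted p up to 0.156 for Grm8 and 0.147 for Grm3) and with a trended, robust variance model (adjusted p = 0.051 for Grm8 and 0.0741 for Grm3).

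Grm4, a presynaptic receptor, missed the threshold although its groups did not overlap. It read 7.89, 7.41 and 7.77 in the medial samples, against 7.07, 6.97 and 7.14 in the lateral samples. Its medial mean lay 1.55-fold above the lateral one (log2 difference 0.63 ± 0.14, SE, limma adjusted p = 0.0793), and the lateral mean of 7.06 was below the bound. It passed in 4 of the 6 alternative fits to all samples (adjusted p from 0.0214 to 0.0827) and without medial replicate 2. Grm7 differed by 0.32 (limma adjusted p = 0.35) with overlapping values, and Grm6, best known from retinal bipolar cells, by −0.02 at a level below the bound.

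Slc17a6, which encodes the vesicular transporter VGLUT2, was higher in the medial samples. It read 6.67, 6.27 and 6.56 in the medial samples, against 5.47, 5.56 and 5.41 in the lateral samples. Every medial sample was above every lateral sample, by 2.03-fold on average (log2 difference 1.02 ± 0.12, SE, limma adjusted p = 0.00892). All of these values are below the bound of 7.47. The call ended without medial replicate 3 (limma adjusted p = 0.0516) and held in the other 5 such fits. Of the excitatory interneuron markers, 9 of 11 were at or below the bound in both groups. Evx1 and Evx2 stood above it, at 8.20 and 7.81 in medial and 8.27 and 7.88 in lateral samples. By sign, 2 of the 11 were higher and 9 lower in medial samples. The list had 0 of 11 genes past the threshold in limma. It had 1 with an unadjusted p under 0.05, Barhl2, which differed by −0.28 on the log2 scale. Of all 14860 named genes 3.8% passed and 2155 had such a p, so 0 of 11 is close to the general share. Whether such cells had a part in the Slc17a6 difference was not tested.

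Slc17a7 and Slc17a8, for VGLUT1 and VGLUT3, differed by 0.01 and −0.05 with overlapping values and stood below the bound in both groups. Of the carriers that clear glutamate at the cell surface, Slc1a1, the neuronal form, averaged 9.41 ± 0.16 in medial and 9.95 ± 0.25 in lateral samples, without overlap. It did not pass (log2 difference −0.53, limma adjusted p = 0.168), except after quantile normalization (adjusted p = 0.0485). Slc1a3, the carrier of glial cells and their precursors, was below the bound at 5.53 in medial and 5.60 in lateral samples.

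**Figure D4:**
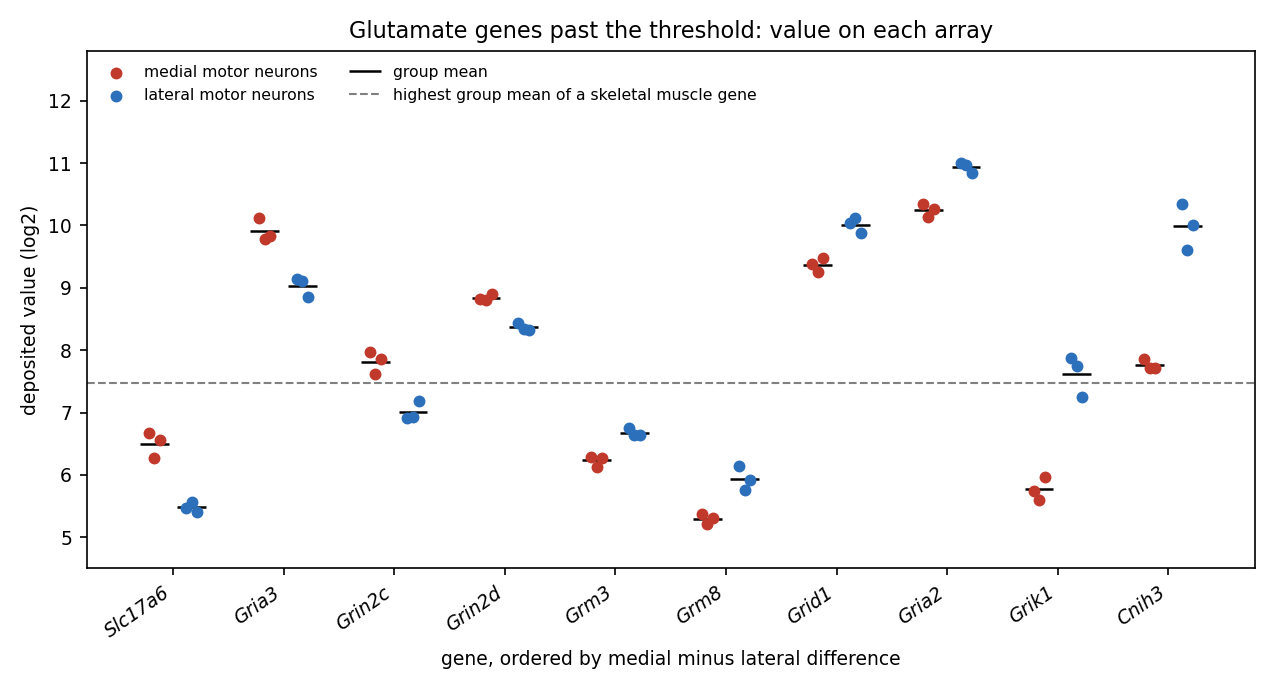
Deposited log2 value on every array for the 10 genes past the threshold, with the medial samples left of the lateral samples and a bar at each group mean. The medial and lateral points did not overlap for any of the 10. The genes were picked for their difference, so this is no further support, and 22.2% of all named genes had no overlap. Both groups of Slc17a6, Grm3 and Grm8 lay below the dashed bound of 7.47.

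The table gives 2 start sites of Slc17a6, and the windows before them are chr7:51621580-51621829 and chr7:51624387-51624636 on the plus strand of GRCm38.p6. They are shown under the rule given above, which takes each listed start of a gene.
Slc17a6 upstream start: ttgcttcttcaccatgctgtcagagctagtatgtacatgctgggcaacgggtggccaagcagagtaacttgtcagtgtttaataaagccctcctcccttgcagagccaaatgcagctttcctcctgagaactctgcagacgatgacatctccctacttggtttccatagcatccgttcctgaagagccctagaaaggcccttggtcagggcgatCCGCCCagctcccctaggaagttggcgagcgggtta
Slc17a6 downstream start: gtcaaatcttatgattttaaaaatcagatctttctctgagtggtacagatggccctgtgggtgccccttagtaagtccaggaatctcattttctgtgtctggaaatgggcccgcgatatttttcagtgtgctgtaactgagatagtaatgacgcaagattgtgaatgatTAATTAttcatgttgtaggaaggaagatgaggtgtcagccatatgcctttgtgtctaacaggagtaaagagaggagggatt
The first window held a GC box 36 bases before its start and the second a homeodomain core 81 bases before it. GC content was 53.2% in the first and 41.2% in the second window. The array gives 1 value for the gene and cannot say which start was used.

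Genes that work with glutamate receptors, genes of glutamate metabolism and relatives of the set were examined in 6 lists. The lists held 117 different measured genes, all called partner genes here for short. In limma 8 of them passed as higher and 9 as lower in medial neurons, or 14.5%, where 3.8% of all named genes passed. Their median log2 difference was below 0.01 in size, and their median absolute difference was 0.12. Scaffold and trafficking genes had 3 higher and 4 lower of 30. Nptx2, a pentraxin that clusters AMPA receptors, was 3.09-fold higher in the medial samples, at 9.09 ± 0.19 in medial and 7.47 ± 0.30 in lateral samples (log2, SD, n = 3 each; limma adjusted p = 0.00639). Its lateral mean was no higher than the bound, so the fold can understate the difference. The postsynaptic scaffold gene Tanc1 and the exchange factor gene Iqsec1 were 1.70-fold and 1.67-fold higher, Tanc1 with both group means below the bound of 7.47. Dlg1, which encodes the scaffold SAP97, was 1.89-fold lower, at 8.32 ± 0.16 in medial and 9.24 ± 0.12 in lateral samples. Camk2d and Camk2a, which encode subunits of the calcium and calmodulin dependent kinase that phosphorylates AMPA receptors, were 1.82-fold and 1.44-fold lower, Camk2a with both group means below the bound. Camk2b, at 1.42-fold lower, completes this count and was named with its value known.

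Of the 26 further auxiliary, assembly and synaptic partner genes, 3 were higher and 3 lower. Besides Cbln1, the sortilin family gene Sorcs2 and the olfactomedin gene Olfm3 were higher, by 1.91-fold and 2.08-fold. Sorcs3 and Sorcs1, of the same family as Sorcs2, were 2.45-fold and 2.21-fold lower, and Lrrtm1, which encodes a postsynaptic adhesion protein, was 2.37-fold lower. The 3 Sorcs genes therefore differed in both directions. Sorcs2 averaged 9.58 ± 0.05 in medial and 8.65 ± 0.09 in lateral samples, and Sorcs3 averaged 8.45 ± 0.10 in medial and 9.74 ± 0.18 in lateral samples.

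None of 20 genes for making, breaking down and shuttling glutamate passed in limma, where 3.8% of all named genes passed. Of the 20, 1 had an unadjusted p under 0.05, and 10 had both group means at or below the bound. Of 15 regulators of editing and splicing, the splicing factor genes Rbfox3 and Khdrbs3 passed, 1.43-fold higher and 1.62-fold lower. Adarb1, whose enzyme edits the Gria2 transcript and which was named with its value known, differed by −0.36 ± 0.12 (SE) and did not pass (limma adjusted p = 0.229). Of 19 effectors and partners of metabotropic receptors, Elfn2, which encodes a membrane protein that binds presynaptic metabotropic receptors, was 1.60-fold higher, with a lateral mean of 7.11, below the bound. Among 13 measured relatives of the set, Slc17a4, of the same carrier family as the vesicular glutamate transporters, was 3.15-fold lower, at 5.06 ± 0.08 in medial and 6.72 ± 0.28 in lateral samples, both below the bound. Of the 17 calls in these lists, those of Cbln1, Nptx2, Sorcs1, Sorcs2, Sorcs3, Lrrtm1, Dlg1 and Slc17a4 held in each fit with 1 sample left out. The calls of Tanc1, Iqsec1, Camk2a, Camk2b, Camk2d, Olfm3, Rbfox3, Khdrbs3 and Elfn2 ended in at least one such fit, with an adjusted p of up to 0.18.

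**Figure D5:**
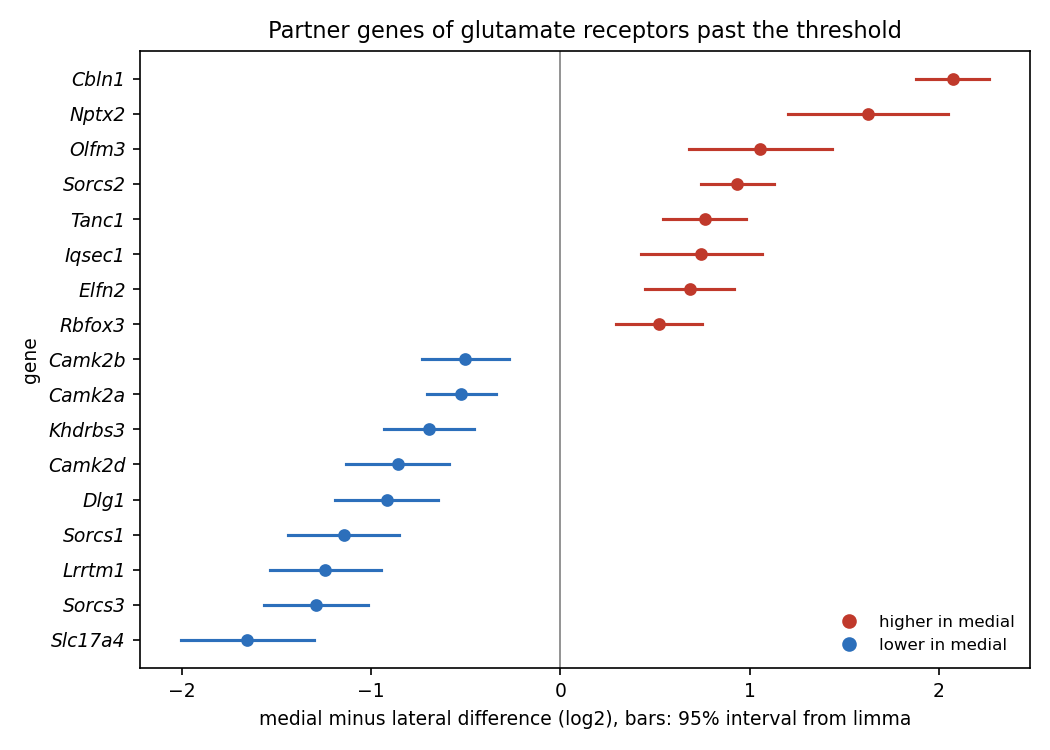
Medial minus lateral difference on the log2 scale, with 95% intervals from limma, for the 17 partner genes past an adjusted p of 0.05. Cbln1 at 2.07 and Nptx2 at 1.63 stood farthest to the right and Slc17a4 at −1.66 and Sorcs3 at −1.29 farthest to the left. Slc17a4 is from the list of relatives of the set.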

How the data were processed

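RNA of sorted HB9::GFP motor neurons was hybridised to 1 array per sample, with 3 medial and 3 lateral samples grouped by their titles. The authors deposited 1 processed log2 value per row and array. The log2 scale was read from the range of the values, and summarization, background correction and normalization are not given in the sources used here, so the centring between arrays is unknown. Per the submitters' processing notes, mm9 was the build used. Depth has no equivalent here, and the number of arrays limits precision. The labels call the samples biological replicates and name no litters, so p-values cover the spread among these samples, which may be technical in part.

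Medial minus lateral differences were tested on both sides with limma 3.58.1 (R 4.3.3; lmFit, then eBayes; no block). Adjustment by Benjamini and Hochberg ran over the 23332 rows, and 0.05 was the threshold. The fit was tested on simulated data with independent normal errors and no replicate effect, which checks the code and not the design. Errors of differences are SEs of this fit. Gene names come from the probe table of the platform, in which 14996 rows had 1 symbol, 1019 had several and 7317 were not listed, and symbols were updated through RefSeq. The members, lists, motifs and tests were chosen with earlier results of these data known. Values on every array are given for members past the threshold and for those that miss it with a fold of at least 1.5 and no overlap. Of the partner lists, up to 6 called genes with the smallest p were named, and of the marker lists the column markers and the genes past the threshold. Alternatives were quantile normalization, median centring, a replicate block, a filter on dim rows, a trended robust variance model, 1 row per gene, other call rules and leaving out each array.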

Additional observations from a re-analysis of the deposited data

How the results depend on the processing

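Of the 10 calls among the glutamate genes, those of Cnih3, Grik1, Gria2, Gria3 and Slc17a6 kept their direction and passed in each alternative fit to all samples that held their row (the filter on dim rows removed Grik1 and Slc17a6). Counts are given as higher and lower in the medial samples, where the main values were 4 and 6 for the glutamate genes, 8 and 9 for the partner lists and 264 and 453 for all rows. The replicate block gave 2 and 3 glutamate genes, ending the calls of Grin2c, Grin2d, Grid1, Grm3 and Grm8, 4 higher partner genes and 294 lower rows. The main fit had no block because the series design names none. Samples with the same number deviated together with r of 0.351, 0.067 and 0.015, and those with different numbers with r from −0.369 to 0.299. Deviations from a mean of 3 samples are tied to each other, so these r cannot decide whether the number marks a pairing. With dim rows left out, 3 glutamate genes were lower, since 9 of the 31 had no row left. An adjusted p of 0.10 gave 404 higher rows. With 1 sample left out the glutamate genes ran from 0 to 3 higher and from 2 to 4 lower, the partner genes from 4 to 5 and from 5 to 7, and all rows from 126 to 224 and from 200 to 348. Without medial replicate 3, 2 glutamate genes passed in all, Cnih3 and Grik1. Genes near 0 changed sign. Grik5 stood at −0.0285 after quantile normalization and between −0.0363 and 0.0556 with a sample left out, Grin3b between −0.0221 and 0.173, Grm6 between −0.0559 and 0.0351 and Slc17a7 between −0.0138 and 0.0438, and none of these passed in limma. Fits with a sample left out rest on fewer arrays, and the cause of the other changes was not tested. No gene of the set had a second row to put in place of the first.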
